A study of Homo sapiens with 16 samples.

Results

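The collagen chain genes of the human line MDA-MB-231, from a triple-negative breast cancer, were described across 4 groups of RNA-seq libraries. The chains were taken as every gene of the count table whose symbol is COL, a number, A and a number. Of the 57500 genes listed, 44 matched, and the 34 with at least 10 counts summed over the 16 libraries were described. By class, 9 encode fibrillar chains, 6 encode the type IV chains of basement membranes and 19 encode other collagens. The remaining 10 matching genes lay below that minimum, 2 of them fibrillar (COL2A1 and COL5A3) and 8 of the other class (COL6A5, COL6A6, COL9A1, COL10A1, COL14A1, COL25A1, COL26A1 and COL28A1). All cells carried a short hairpin RNA whose expression doxycycline switches on. The first group carried a hairpin against AKAP2 (shAKAP2) and received doxycycline, the second carried shAKAP2 without the drug, the third carried a scrambled hairpin (shScramble) with it, and the last carried shScramble without it. Each group had 4 libraries that the labels call biological replicates. Whether these came from separate cultures is not given in the sources used here, so p-values measure the spread between the libraries, which may be technical. Dose, duration and hairpin sequence are likewise not given, and the labels name a single shAKAP2 line and a single shScramble line.

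Collagens are extracellular proteins in which chains wind into triple helices, and each chain has its own gene. Fibrillar chains (types I, III, V, XI and relatives) build the rope-like fibrils of connective tissue, whereas type IV chains form the sheet-like network under epithelia and around vessels. Other collagens form beaded filaments (type VI), anchoring fibrils (type VII) or short-chain networks (type VIII), attach to fibrils or basement membranes, or span the plasma membrane (types XIII and XVII). Carcinoma cells secrete some collagens themselves and bind collagen through integrins at focal adhesions, the sites with which the series is concerned. AKAP2 is a scaffold that anchors protein kinase A.

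Total counts per library ranged from 24482997 to 37472525. AKAP2, the targeted gene, had 0.0403 ± 0.0583 CPM in shAKAP2 cells with doxycycline and 1.42 ± 0.0272 CPM in shAKAP2 cells without it (SD, n = 4 each; CPM is the count relative to a library size scaled to be comparable between libraries). This was a fall of 5.06 on the log2 scale (SE 0.577, adjusted p = 1.25e-06). It rests on few counts, 3, 0, 1 and 0 against 42, 36, 37 and 53. In shScramble libraries AKAP2 had 0.858 to 2.38 CPM with doxycycline and 0.959 to 1.48 CPM without it. A separate entry, PALM2-AKAP2, had 0 to 0.124 CPM in induced and 0.192 to 0.609 CPM in uninduced shAKAP2 libraries. The labels call the cells epithelial, and the 6 epithelial markers summed to 1480 to 1621 CPM in induced and 1249 to 1310 CPM in uninduced shAKAP2 libraries and to 1365 to 1908 CPM in induced and 1178 to 1592 CPM in uninduced shScramble libraries, mostly from keratins; E-cadherin (CDH1) had 8 to 108 counts per group. Of these 6, KRT8 and EPCAM rose and 0 fell with doxycycline in shAKAP2 cells, and of 3 mesenchymal markers VIM and ZEB1 fell and 0 rose. Of all genes 13.1% rose and 15.2% fell in this comparison. A difference between the doxycycline effects of the lines was called for 0 of the 6 epithelial markers. It was called for 1 of the 3 mesenchymal markers, in the downward direction. Vimentin (VIM) averaged 1518 and 1722 CPM in induced and uninduced shAKAP2 and 1438 and 1399.6 CPM in induced and uninduced shScramble cells. ZEB1 averaged 67.6 and 99.7 CPM in induced and uninduced shAKAP2 and 96.1 and 91.2 CPM in induced and uninduced shScramble cells. Both shScramble libraries of replicate 1 stood apart, with gene-level deviations from their group means whose SD was 0.460 and 0.422 on the log2 scale, against 0.288 to 0.351 in the other libraries. Calls that changed when both were left out are given beside the result or with the alternatives at the end. Uncalled values could move as well, and not all of these are listed. For the doxycycline effect in shScramble cells, COL18A1 moved from log2 0.12 to 0.28 and COL13A1 from -0.14 to -0.07, both uncalled.

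Per base of exon, the highest chain was COL13A1, at a mean of 23.6 FPKM (the same scaled count per kilobase of exon) over the 16 libraries. It encodes a transmembrane collagen of cell-matrix adhesions. COL6A1, a beaded-filament chain, averaged 13.6 FPKM, COL8A1, a short-chain network collagen, 12.4 FPKM, COL5A1, a fibrillar chain that governs fibril assembly, 11.0 FPKM, and COL18A1, the source of the fragment endostatin, 9.65 FPKM. The exon length joined all annotated exons of a gene, 5888 bases for COL13A1 and 19293 for COL4A2, so the order depends on that length. In CPM, COL13A1 was also the highest chain, at a mean of 139, and COL4A2 averaged 98.7. The 8 highest chains held 86.0% of the summed collagen CPM. Summed counts of single members spanned 11 to 64665, so that precision differed widely between chains. After a filter on low counts, 27 chains were tested (8 fibrillar, 5 type IV and 14 other). As in any bulk measurement, fewer cells that express a gene and less RNA per cell cannot be told apart.

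When doxycycline was added to shAKAP2 cells, the main type IV pair rose, 3 fibrillar chains, a transmembrane chain and the endostatin-bearing chain fell, and most chains did not pass the test. At an adjusted p under 0.05 by edgeR's quasi-likelihood test, 4 chains rose (COL4A1, COL4A2, COL5A2 and COL8A1) and 5 fell (COL1A2, COL3A1, COL5A1, COL13A1 and COL18A1) out of 27. That is 33.3% of the tested chains, beside 28.3% of all 15566 genes tested (13.1% higher and 15.2% lower), so the share of chains called was near that of genes in general. The chains' median log2 fold change was -0.18, beside 0.00159 for all genes. By class, 1 fibrillar chain rose and 3 fell of 8, 2 type IV chains rose and 0 fell of 5, and 1 other chain rose and 2 fell of 14. A difference between the doxycycline effects of the lines was called for 2 chains in the upward direction (COL4A1 and COL4A2) and 5 in the downward direction (COL1A2, COL3A1, COL5A1, COL13A1 and COL18A1), beside 7.53% and 10.5% of all genes (18.0% either way). The median of that difference over the chains was -0.42.

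**Figure D1:**
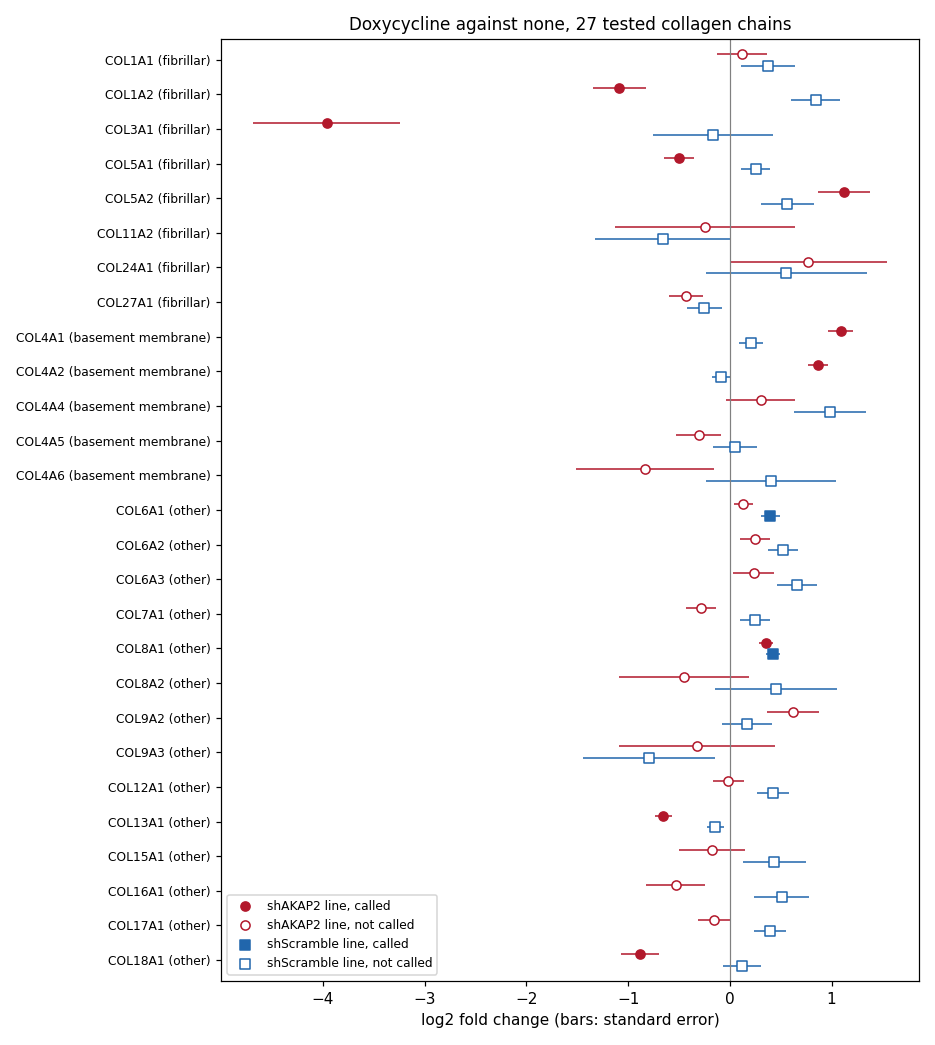
Log2 fold change of doxycycline against none (x axis) for the 27 tested collagen chains, with the shAKAP2 line as red circles and the shScramble line as blue squares; filled symbols passed an adjusted p under 0.05 and bars are standard errors. COL4A1 (1.09) and COL4A2 (0.87) are filled on the right for shAKAP2, COL3A1 (-3.96) and COL1A2 (-1.09) to the left, and COL8A1 is filled for both lines (0.36 and 0.43).

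COL4A1 and COL4A2 encode the chains of the widespread type IV network of basement membranes. COL4A1 (ENSG00000187498; GRCh38 chromosome 13, 110148963 to 110307233, minus strand) had 56.5, 53.2, 46.3 and 52.5 CPM in induced shAKAP2 libraries, 23.4, 25.9, 24.0 and 24.7 CPM in uninduced ones, 31.8, 26.2, 31.7 and 37.9 CPM in induced shScramble libraries and 35.6, 27.2, 23.0 and 24.6 CPM in uninduced ones. Every induced shAKAP2 library lay above all 12 others. COL4A1 was 2.13-fold higher with doxycycline in shAKAP2 cells (log2 1.09, SE 0.122, adjusted p = 9.42e-07), while the log2 difference in shScramble cells was 0.21 (SE 0.121, adjusted p = 0.657). The difference between these effects was 0.88 (SE 0.171, adjusted p = 0.00102). COL4A2 (ENSG00000134871; chromosome 13, 110305812 to 110513209, plus strand) had 161, 143, 134 and 135 CPM in induced shAKAP2 libraries and 81.7, 83.1, 72.1 and 77.3 CPM in uninduced ones. Its induced shScramble libraries stood at 75.1, 81.5, 86.1 and 93.5 CPM and its uninduced ones at 105, 94.4, 81.2 and 75.1 CPM, so that again no other library reached the induced shAKAP2 range. The rise in shAKAP2 cells was 1.82-fold (log2 0.87, SE 0.0963, adjusted p = 8.93e-07), and the difference between the lines' effects was 0.95 (SE 0.136, adjusted p = 4.5e-05).

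The genes of this pair lie head to head and share a promoter region, so the bases between their starts are shown, with matches to a GC box (GGGCGG) or a CCAAT box (CCAAT), searched on both strands, in capitals. In RefSeq's GRCh38.p14 annotation the start of COL4A2 on the plus strand (110307284) and that of COL4A1 on the minus strand (110307157) are 127 bases apart. The interval between them, chr13:110307158-110307283, reads on the plus strand:
COL4A2/COL4A1: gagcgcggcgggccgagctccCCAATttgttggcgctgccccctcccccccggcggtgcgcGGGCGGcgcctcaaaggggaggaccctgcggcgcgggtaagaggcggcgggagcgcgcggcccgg
The 300-base window of COL4A2 (250 bases before the start and 50 after it) held 1 GC box and 1 CCAAT box, and that of COL4A1, which shares 226 of its bases, held 2 and 1. Neither held a TATA box (TATAAA). Of 35097 RefSeq promoter windows of this length, 44.9% held the GC box letters, 34.6% the CCAAT letters and 11.5% the TATA letters.

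The other type IV chains gave no call in any of the 5 comparisons with all libraries; without both shScramble replicate 1 libraries COL4A4 was called higher in uninduced shAKAP2 than in uninduced shScramble cells (log2 1.22, adjusted p = 0.0269). COL4A5 and COL4A6 form another head-to-head pair, on chromosome X, with starts 380 bases apart (108439838 for COL4A5 and 108439458 for COL4A6). RefSeq gave 2 promoter windows for COL4A6, and the start nearest that of COL4A5 was used. The 250 bases before the start of COL4A5, chrX:108439588-108439837 on the plus strand, are shown with the same boxes in capitals for comparison with the chromosome 13 pair:
COL4A5: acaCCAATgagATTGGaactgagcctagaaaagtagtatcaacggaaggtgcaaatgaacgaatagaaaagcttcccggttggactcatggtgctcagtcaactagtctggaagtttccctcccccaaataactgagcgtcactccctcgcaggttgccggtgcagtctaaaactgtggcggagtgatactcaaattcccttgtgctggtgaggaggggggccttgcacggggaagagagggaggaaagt
This window held 2 CCAAT boxes, 1 of them on the opposite strand, and 0 GC boxes. COL4A5 had 6.83, 5.35, 3.68 and 4.17 CPM in induced shAKAP2 libraries and 6.75, 6.53, 5.33 and 6.14 CPM in uninduced ones, which overlapped (log2 -0.31, SE 0.219, adjusted p = 0.324). COL4A6 had 22 counts in induced and 46 in uninduced shAKAP2 libraries (adjusted p = 0.396). COL4A4, a chain of kidney and other specialised basement membranes, had 1.98, 1.14, 1.13 and 1.68 CPM with doxycycline and 1.56, 1.31, 1.07 and 0.874 CPM without it in shAKAP2 cells (adjusted p = 0.55). Its partner COL4A3 was too low to test, at 2 and 26 counts. Summed over the 6 members of this class, type IV chains amounted to 202 ± 17.9 CPM in induced shAKAP2 libraries, 111 ± 6.31 CPM in uninduced shAKAP2, 124 ± 10.3 CPM in induced shScramble and 123 ± 19.9 CPM in uninduced shScramble libraries (SD, n = 4 each).

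Of the fibrillar chains, COL1A2, COL3A1 and COL5A1 fell with doxycycline in shAKAP2 cells. COL5A1 (ENSG00000130635; chromosome 9, 134641774 to 134844843, plus strand) encodes the chain of type V collagen that starts and limits fibrils. It had 96.1, 88.5, 82.5 and 85.5 CPM in induced shAKAP2 libraries, 132, 123, 117 and 127 CPM in uninduced ones, 149, 150, 139 and 167 CPM in induced shScramble libraries and 183, 123, 92.7 and 107 CPM in uninduced ones. The induced shAKAP2 libraries were below all uninduced shAKAP2 and all induced shScramble libraries, and replicate 1 was the highest of the uninduced shScramble libraries. In shAKAP2 cells its log2 fold change was -0.50 (SE 0.144, adjusted p = 0.0145), that in shScramble cells 0.26 (SE 0.143, adjusted p = 0.642), and their difference -0.76 (SE 0.203, adjusted p = 0.0156). With no filter on low counts neither the shAKAP2 effect nor the difference was called. COL5A2, the partner chain, moved the opposite way in shAKAP2 cells: 4.03, 3.48, 2.48 and 2.34 CPM with doxycycline against 1.19, 1.54, 1.37 and 1.56 CPM without it, with no overlap (log2 1.12, SE 0.254, adjusted p = 0.00216). In shScramble cells COL5A2 had 1.44, 1.77, 2.27 and 1.18 CPM with the drug and 1.15, 0.922, 1.07 and 1.32 CPM without it, and the difference between the lines' effects was not called (0.56, SE 0.364, adjusted p = 0.331).

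COL1A2 (ENSG00000164692; chromosome 7, 94394561 to 94431232, plus strand) encodes the minor chain of type I collagen, the main collagen of connective tissue. Its level was 5.35, 5.28, 5.56 and 5.67 CPM in induced shAKAP2 libraries, 8.21, 12.3, 14.0 and 12.0 CPM in uninduced ones, 41.2, 32.3, 24.1 and 30.0 CPM in induced shScramble libraries and 27.2, 20.5, 11.1 and 12.0 CPM in uninduced ones. The induced shAKAP2 libraries were the lowest of all 16 and the induced shScramble libraries lay above every shAKAP2 library. COL1A2 fell by 1.09 on the log2 scale in shAKAP2 cells (SE 0.262, adjusted p = 0.00504); in shScramble cells the difference was 0.84 (SE 0.241, adjusted p = 0.145), and 0.99 and called without both replicate 1 libraries (adjusted p = 0.00604). The effects of the lines differed by -1.93 (SE 0.357, adjusted p = 0.00119). COL1A1, the major chain of the same trimer, did not follow: it had 8.07, 6.31, 6.54 and 7.58 CPM in induced shAKAP2 libraries and 4.28, 6.68, 8.26 and 6.99 CPM in uninduced ones, which overlapped (log2 0.12, SE 0.249, adjusted p = 0.764).

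COL3A1 (chromosome 2, 188974320 to 189012746, plus strand), the chain of type III collagen of vessels and soft tissue, was scarce in every group. It had 10 counts in induced and 182 in uninduced shAKAP2 libraries, and 74 in induced and 85 in uninduced shScramble libraries. Per library that was 0.0412, 0.147, 0.15 and 0.0366 CPM with doxycycline in shAKAP2 cells against 0.407, 1.5, 2.4 and 1.86 CPM without it, with no overlap. COL3A1 changed by -3.96 on the log2 scale (SE 0.723, adjusted p = 0.000299), and the effects of the lines differed by -3.80 (SE 0.94, adjusted p = 0.00753). In shScramble cells it had 0.819, 0.747, 0.47 and 0.519 CPM with the drug and 0.349, 0.369, 1.86 and 0.293 CPM without it, where replicate 3 alone was high. The remaining tested fibrillar chains, COL11A2, COL24A1 and COL27A1, gave no doxycycline call in shAKAP2 cells, with COL27A1 nearest (log2 -0.43, SE 0.17, adjusted p = 0.0644, and 0.0337, a call, without both shScramble replicate 1 libraries). COL11A1, a chain of cartilage, was below the filter, with 34 and 6 counts in induced and uninduced shAKAP2 libraries and 10 and 23 in induced and uninduced shScramble libraries.

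Fibrillar chains are typical products of fibroblasts, so markers of fibroblasts and other cell types are given beside them. Summed over 9 fibroblast markers without collagens, libraries held 11.1 to 13.4 CPM in induced shAKAP2, 13.3 to 16.6 CPM in uninduced shAKAP2, 25.5 to 32.6 CPM in induced shScramble and 16.1 to 21.3 CPM in uninduced shScramble cells. Of 6 tested, 2 (DCN and FBLN1) fell and 0 rose in shAKAP2 cells with doxycycline, beside 15.2% and 13.1% of all genes, and DCN had 1 and 95 counts in induced and uninduced shAKAP2 libraries and 75 and 19 in induced and uninduced shScramble libraries. In shScramble cells PDGFRB was the 1 fibroblast marker of 6 that rose with doxycycline, beside 0.559% of all genes. POSTN was at 0 in uninduced shScramble cells. Summed over 10 blood cell markers, libraries held 50.4 to 66.2 CPM in induced shAKAP2, 71.7 to 82.8 CPM in uninduced shAKAP2, 136 to 185 CPM in induced shScramble and 84.2 to 102 CPM in uninduced shScramble cells, with HBB at 0 in all but uninduced shScramble cells. Of 7 tested blood cell markers, 0 rose and 2 fell with doxycycline in shAKAP2 cells, and 4 rose and 0 fell in shScramble cells. Of all genes 13.1% rose and 15.2% fell in shAKAP2 cells, and 0.559% rose and 0.52% fell in shScramble cells, beside 28.6% of the blood cell markers that fell in shAKAP2 cells and 57.1% that rose in shScramble cells. The sum of 4 endothelial markers was at most 13.8 CPM. Their part in the collagen results was not tested.

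**Figure D2:**
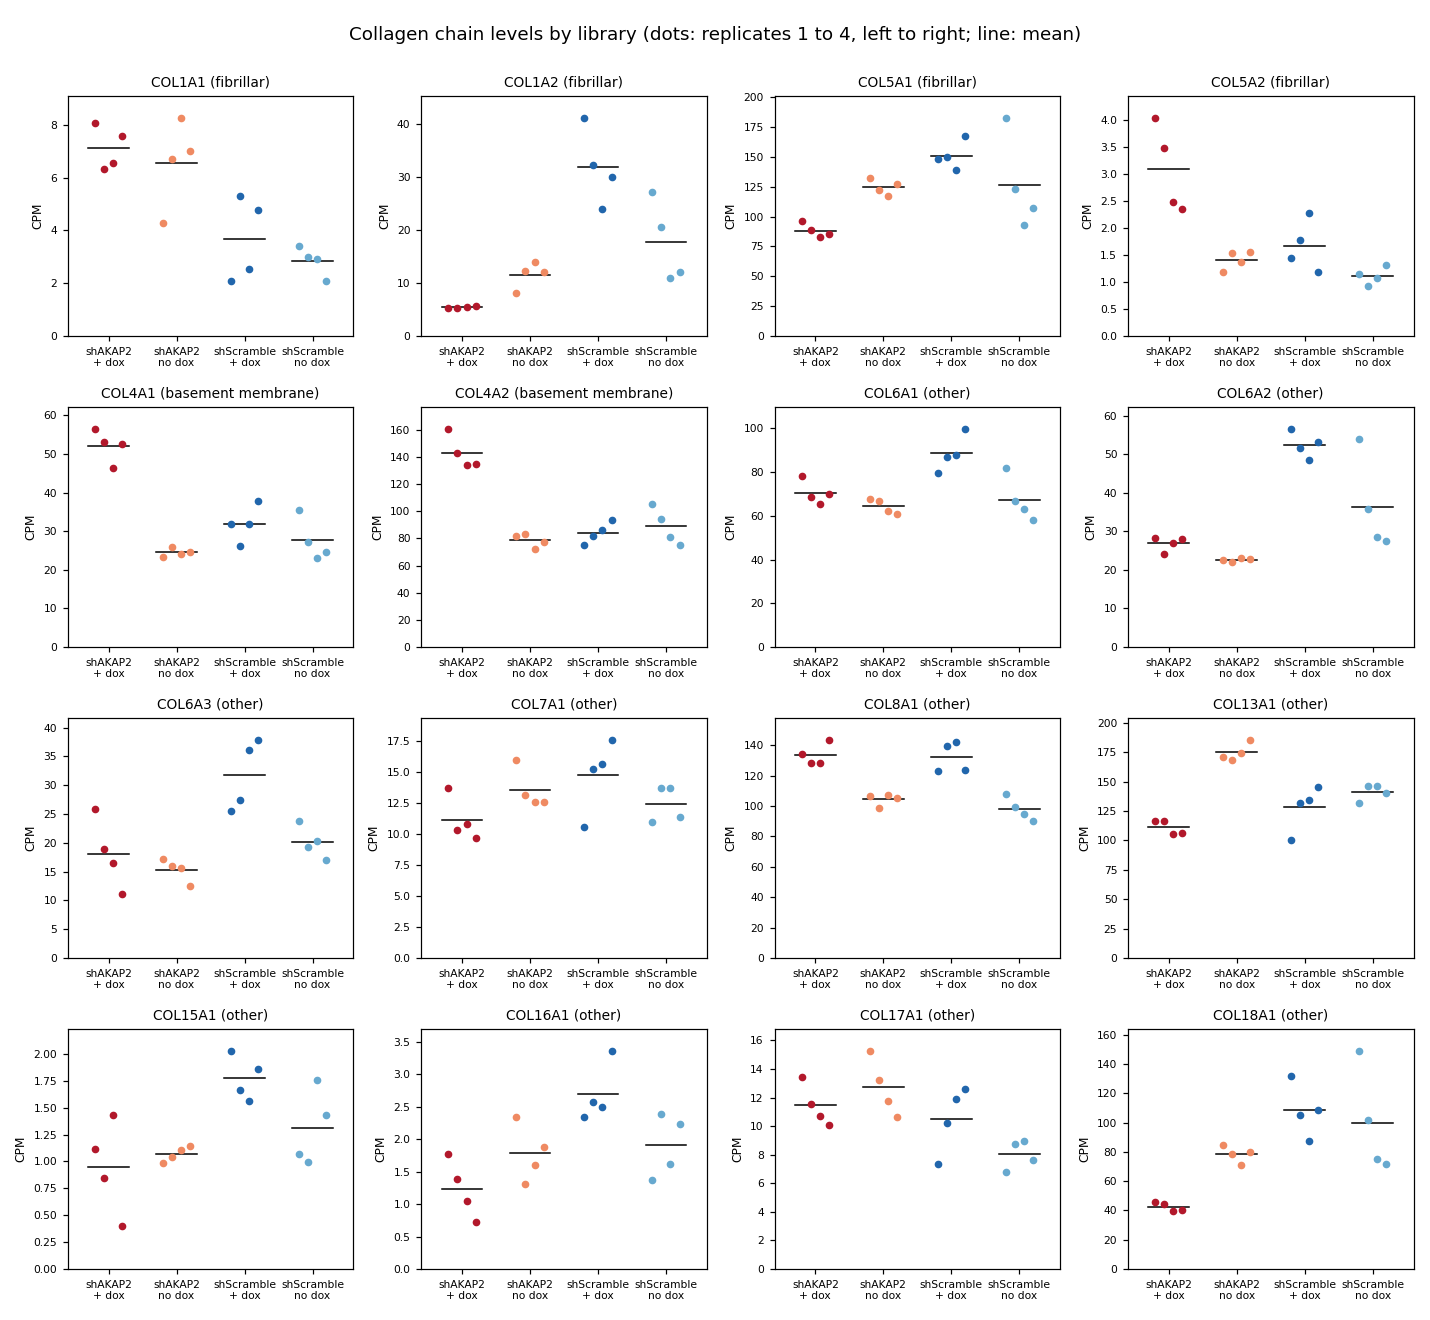
CPM (y axis, from 0) of the 16 collagen chains given library by library, in the 4 groups; dots are replicates 1 to 4 from left to right and lines are group means. The induced shAKAP2 dots sit above all others for COL4A1 (46.3 to 56.5 CPM) and COL4A2 (134 to 161 CPM) and below all others for COL1A2 (5.28 to 5.67 CPM) and COL18A1 (39.9 to 45.8 CPM).

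COL13A1 and COL18A1 fell among the other collagens. COL13A1 (ENSG00000197467; chromosome 10, 69801867 to 69964275, plus strand) had 116, 116, 105 and 107 CPM in induced shAKAP2 libraries, 171, 168, 175 and 185 CPM in uninduced ones, 101, 132, 134 and 145 CPM in induced shScramble libraries and 132, 147, 147 and 140.2 CPM in uninduced ones. The uninduced shAKAP2 libraries were the highest of the 16, and the induced shAKAP2 libraries overlapped the induced shScramble libraries through replicate 1 of induced shScramble. COL13A1 fell by 0.65 in shAKAP2 cells on the log2 scale (SE 0.0856, adjusted p = 7.15e-06), against a log2 change of -0.14 in shScramble cells (SE 0.0852, adjusted p = 0.672). The difference of the effects was -0.51 (SE 0.121, adjusted p = 0.00521). COL18A1 (ENSG00000182871; chromosome 21, 45405137 to 45513720, plus strand), a heparan sulphate-bearing basement membrane collagen, had 45.8, 44.3, 39.9 and 40.7 CPM in induced and 84.6, 78.9, 70.9 and 80.0 CPM in uninduced shAKAP2 libraries. Its shScramble libraries had 132, 105, 87.3 and 109 CPM with doxycycline and 149, 102, 75.5 and 71.7 CPM without it, all above the induced shAKAP2 range and highest in replicate 1. The log2 change was -0.88 in shAKAP2 cells (SE 0.187, adjusted p = 0.00212) and 0.12 in shScramble cells (SE 0.182, adjusted p = 0.921), and the difference of -1.002 (SE 0.261, adjusted p = 0.0144) was not called with no filter on low counts. Of the exon bases of COL18A1, 16.4% overlap SLC19A1 on the opposite strand, and no use of strand in counting is stated; SLC19A1 itself had 10 to 40 counts per group.

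COL8A1, a short-chain collagen of vessel walls and the cornea, was the chain that rose with doxycycline in both lines. It had 135, 128, 128 and 143 CPM in induced and 107, 98.7, 108 and 105 CPM in uninduced shAKAP2 libraries, and 123, 139, 142 and 124 CPM in induced and 108, 99.6, 95.0 and 90.3 CPM in uninduced shScramble libraries. In both lines every library with the drug lay above every library without it. The log2 rise was 0.36 in shAKAP2 cells (SE 0.0704, adjusted p = 0.000671) and 0.43 in shScramble cells (SE 0.0704, adjusted p = 0.00236), a call that a fit to the shScramble libraries alone did not make. The effects differed by -0.07 (SE 0.0994, adjusted p = 0.695), which gives no evidence of a difference and does not show that they are equal. COL12A1, a fibril-associated collagen that ranks among the 8 highest chains, averaged 118 ± 29.7 CPM in induced and 119 ± 7.11 CPM in uninduced shAKAP2 libraries and gave no call (log2 -0.02, SE 0.153, adjusted p = 0.954). COL9A2, a fibril-associated chain of cartilage, had 8.60, 6.64, 7.44 and 8.60 CPM in induced and 4.75, 4.80, 4.19 and 6.47 CPM in uninduced shAKAP2 libraries. These groups did not overlap, but the difference passed the test only under alternatives such as a fit to the shAKAP2 libraries alone (log2 0.62, SE 0.256, adjusted p = 0.0778 with all libraries and 0.00184 in that fit). The difference was also called without both shScramble replicate 1 libraries (log2 0.62, adjusted p = 0.00144).

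The same drug in shScramble cells gave 2 called chains, COL8A1 and COL6A1, both higher, and 0 lower. That is 7.41% of the tested chains, beside 1.08% of all genes (0.559% higher and 0.52% lower). The chains' median log2 difference was 0.40 (all genes -0.000408), with 21 of 27 positive. At an unadjusted p under 0.05, 9 chains were higher and 0 lower, beside 5.3% and 4.05% of all genes. DESeq2 called 5 higher and 0 lower, beside 1.08% and 0.848% of all genes, and limma-voom 2 and 0, beside 0.514% and 0.488%. COL6A1, the first of the beaded-filament chains, had 79.5, 87.0, 88.0 and 99.7 CPM with doxycycline and 81.7, 66.5, 63.0 and 57.9 CPM without it; replicate 1 without the drug overlapped the induced range (log2 0.40, SE 0.094, adjusted p = 0.043). Its call was lost in a fit to the shScramble libraries alone, in which 0 chains were called, and on leaving out any single library other than replicate 1 of induced shAKAP2 or of either shScramble group. In that fit to the shScramble libraries alone, 14 of 14771 genes were called higher and 23 lower (0.0948% and 0.156%). Without both replicate 1 libraries, 6 chains were called higher, among them COL6A2 (log2 0.74, adjusted p = 9.71e-07), COL5A1 (0.50, adjusted p = 0.000333), COL1A2 (0.99) and COL4A1 (0.36, adjusted p = 0.0295); of all genes 588 were then called higher and 414 lower, against 87 and 81 with them.

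Between induced cells of the lines, shAKAP2 against shScramble, 4 chains were higher (COL1A1, COL4A1, COL4A2 and COL5A2) and 10 lower. These are 51.9% of the tested chains, beside 40.2% of all genes (18.7% higher and 21.5% lower), and the median log2 difference was -0.34. The 10 lower chains were fibrillar COL1A2, COL3A1 and COL5A1, and COL6A1, COL6A2, COL6A3, COL7A1, COL15A1, COL16A1 and COL18A1 of the other class, which had 0 higher chains of 14. COL1A2 had the largest called log2 difference above a mean of 1 CPM, at -2.54 (SE 0.263, adjusted p = 1.16e-06), followed by COL18A1 at -1.34 (SE 0.188, adjusted p = 3.5e-05). COL4A1 and COL4A2 were higher by log2 0.71 (SE 0.12, adjusted p = 9.07e-05) and 0.77 (SE 0.0961, adjusted p = 2.55e-06). This comparison and the shAKAP2 doxycycline comparison share the induced shAKAP2 libraries, so their calls are not independent of each other.

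The 3 beaded-filament chains that assemble with each other, COL6A1, COL6A2 and COL6A3, were all lower in induced shAKAP2 than in induced shScramble cells. COL6A1 had 78.1, 68.8, 65.3 and 70.0 CPM in the induced shAKAP2 libraries, all below the induced shScramble values (log2 -0.33, SE 0.0941, adjusted p = 0.00837). COL6A2 had 28.2, 24.2, 27.1 and 28.0 CPM in induced shAKAP2, 22.6, 22.1, 23.0 and 22.8 CPM in uninduced shAKAP2, 56.6, 51.5, 48.5 and 53.1 CPM in induced shScramble and 54.0, 35.7, 28.5 and 27.4 CPM in uninduced shScramble libraries. The induced groups did not overlap, nor did the uninduced ones. COL6A2 was lower in shAKAP2 cells with doxycycline (log2 -0.96, SE 0.15, adjusted p = 4.74e-05) and without it (-0.69, SE 0.151, adjusted p = 0.00452); the difference without the drug was -0.43 without replicate 1 of uninduced shScramble and still called. Its doxycycline effect in shAKAP2 cells was 0.25 (adjusted p = 0.247) with all libraries, and 0.24 and called without both shScramble replicate 1 libraries (adjusted p = 0.0173). COL6A3 had 25.9, 18.8, 16.5 and 11.1 CPM in induced shAKAP2 and 25.5, 27.4, 36.1 and 37.9 CPM in induced shScramble libraries, where replicate 1 of shAKAP2 just entered the shScramble range (log2 -0.81, SE 0.198, adjusted p = 0.00321).

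Of the lower chains, COL16A1, COL15A1 and COL7A1 were scarcer than the beaded-filament chains. COL16A1, a fibril-associated chain, had 1.77, 1.39, 1.05 and 0.732 CPM in induced shAKAP2 libraries and 2.34, 2.58, 2.504 and 3.36 CPM in induced shScramble ones (log2 -1.13, SE 0.283, adjusted p = 0.00323). COL15A1, a relative of COL18A1 in basement membrane zones, had 1.11, 0.843, 1.43 and 0.403 CPM in induced shAKAP2 against 2.03, 1.66, 1.57 and 1.86 CPM in induced shScramble libraries (log2 -0.91, SE 0.318, adjusted p = 0.0274). Neither chain overlapped between the groups. COL7A1, the anchoring fibril collagen of skin, did overlap, at 13.8, 10.3, 10.8 and 9.70 CPM in induced shAKAP2 and 10.6, 15.3, 15.7 and 17.6 CPM in induced shScramble libraries (log2 -0.41, SE 0.148, adjusted p = 0.0318). The COL16A1 call was lost under 0 of 23 alternatives, and those of COL15A1 and COL7A1 were each lost under 7. For COL7A1 these included leaving out replicate 2, 3 or 4 of either induced group, and for COL15A1 replicate 2 or 4 of induced shAKAP2, replicate 1 or 4 of induced shScramble, or both shScramble replicate 1 libraries. The doxycycline effect on COL7A1 in shAKAP2 cells, uncalled with all libraries, was -0.29 and called without both shScramble replicate 1 libraries (adjusted p = 0.0484). With all libraries, the effect in shAKAP2 cells was log2 -0.53 for COL16A1 (adjusted p = 0.178) and -0.18 for COL15A1 (adjusted p = 0.731), neither called. In shScramble cells it was 0.51 for COL16A1 (adjusted p = 0.605) and 0.44 for COL15A1 (adjusted p = 0.755), likewise uncalled.

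**Figure D3:**
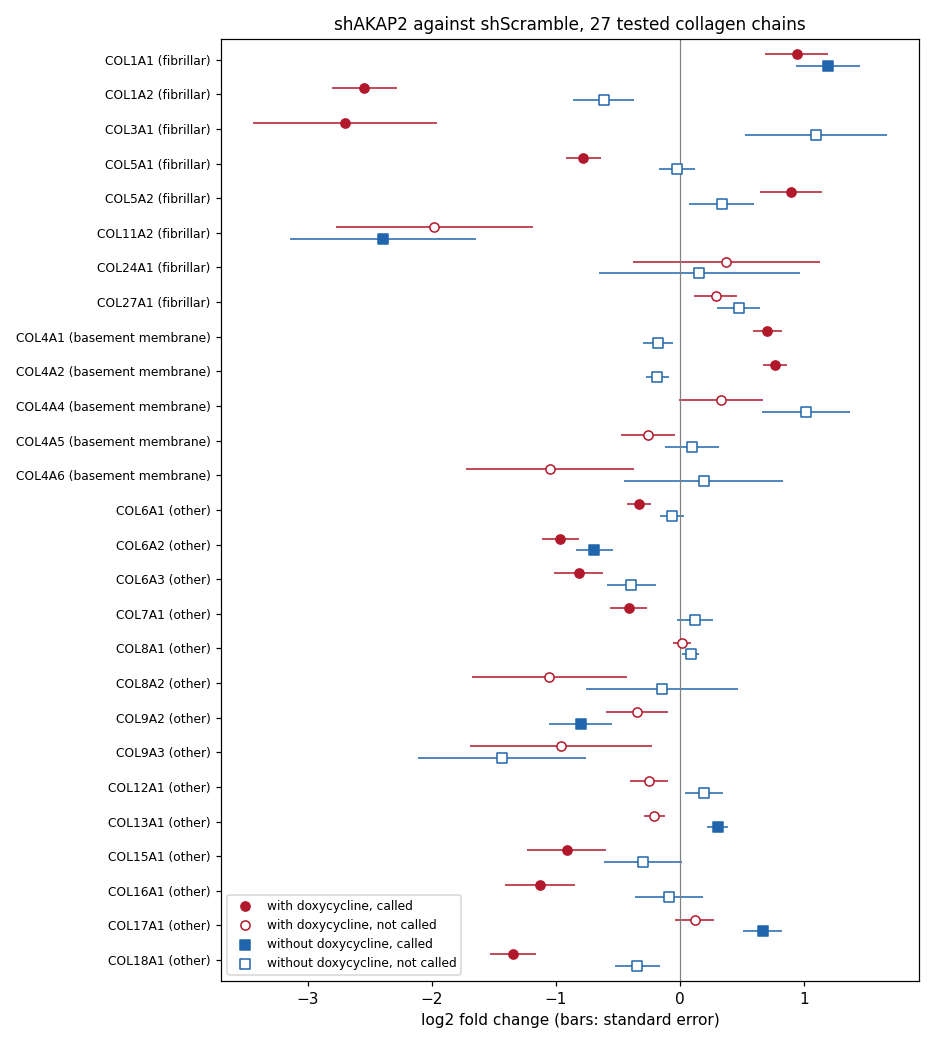
Log2 difference of shAKAP2 against shScramble (x axis) for the 27 tested collagen chains, with doxycycline as red circles and without it as blue squares; filled symbols passed an adjusted p under 0.05 and bars are standard errors. With doxycycline COL1A2 lies at -2.54 and COL18A1 at -1.34, while COL4A1 and COL4A2 lie at 0.71 and 0.77; without it the filled points include COL1A1 (1.20), COL17A1 (0.67) and COL6A2 (-0.69).

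Without doxycycline the lines differed in fewer chains. In uninduced shAKAP2 against uninduced shScramble cells, 3 chains were higher (COL1A1, COL13A1 and COL17A1) and 3 lower (COL6A2, COL9A2 and COL11A2), 22.2% of the tested chains beside 18.0% of all genes (8.65% higher and 9.31% lower), with a median log2 difference of -0.02. COL1A1 had 4.28, 6.68, 8.26 and 6.99 CPM in uninduced shAKAP2 and 3.41, 2.99, 2.90 and 2.09 CPM in uninduced shScramble libraries (log2 1.20, SE 0.259, adjusted p = 0.00384). With the drug it had 2.07, 5.30, 2.54 and 4.78 CPM in shScramble libraries, and the log2 difference between the lines was 0.94 (SE 0.255, adjusted p = 0.0059). COL1A1 was thus higher in shAKAP2 cells under both conditions, with no overlap between the lines. COL17A1, the collagen of hemidesmosomes, had 15.3, 13.3, 11.8 and 10.7 CPM in uninduced shAKAP2 and 6.76, 8.74, 8.98 and 7.61 CPM in uninduced shScramble libraries (log2 0.67, SE 0.16, adjusted p = 0.00718), again without overlap. With doxycycline it had 13.4, 11.6, 10.7 and 10.1 CPM in shAKAP2 and 7.37, 10.2, 11.9 and 12.6 CPM in shScramble libraries, which overlapped.

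COL13A1 was higher in uninduced shAKAP2 cells (log2 0.31, SE 0.0851, adjusted p = 0.0177), a call lost without replicate 4 of uninduced shAKAP2. Its difference between the induced lines was -0.20 (SE 0.0854, adjusted p = 0.0629), and -0.31 and called without both shScramble replicate 1 libraries (adjusted p = 2.27e-05). The change between the uninduced and the induced difference is the called difference of doxycycline effects given above. COL9A2 was lower (log2 -0.80, SE 0.254, adjusted p = 0.0365), with 612 counts in uninduced shAKAP2 and 1112 in uninduced shScramble libraries, a value that was -0.42 without replicate 1 of uninduced shScramble, and COL11A2 was lower (log2 -2.39, SE 0.75, adjusted p = 0.0322) from 16 and 89 counts. These calls were lost under 9 alternatives for COL9A2 and 5 for COL11A2. They included leaving out replicate 1 or 2 of uninduced shScramble for both chains, replicate 1, 2 or 3 of uninduced shAKAP2 for COL9A2, and replicate 1, 3 or 4 of uninduced shAKAP2 for COL11A2. Without both shScramble replicate 1 libraries the COL9A2 difference was -0.42 and not called (adjusted p = 0.0561). For COL5A1 the difference between the uninduced lines was not called with all libraries (log2 -0.02, adjusted p = 0.943), but without both shScramble replicate 1 libraries the difference was 0.21 and called (adjusted p = 0.0411).

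The scarcest members stayed descriptive. The 7 chains below the filter were COL4A3, COL11A1, COL19A1, COL20A1, COL21A1, COL22A1 and COL23A1, with 11 to 73 counts each over the 16 libraries. COL21A1 had 2 and 7 counts in induced and uninduced shAKAP2 libraries and 0 and 32 in induced and uninduced shScramble libraries. All 10 counts of COL20A1 in induced shAKAP2 cells came from replicate 3, and it had 1 count in uninduced shAKAP2 and 0 in shScramble cells. The type IX partner COL9A3 and COL8A2, the partner of COL8A1, passed the filter with 127 and 251 counts in all and gave no call in any comparison.

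Summed over the 9 members of the class, fibrillar chains amounted to 109.5 ± 7.39 CPM in induced shAKAP2, 153 ± 1.55 CPM in uninduced shAKAP2, 194 ± 14.5 CPM in induced shScramble and 155 ± 46.6 CPM in uninduced shScramble libraries (SD, n = 4 each). The large SD of the last group comes with replicate 1, at 220.3 CPM against 116 to 154 CPM in its other libraries. The other class amounted to 554 ± 51.3 CPM in induced and 615 ± 16.8 CPM in uninduced shAKAP2 libraries, and to 722 ± 37.7 CPM in induced and 601 ± 81.5 CPM in uninduced shScramble libraries. All 34 chains together gave 866 ± 75.1 CPM in induced shAKAP2 and 878 ± 20 CPM in uninduced shAKAP2 libraries, against 1039 ± 55.6 CPM in induced and 879 ± 147 CPM in uninduced shScramble libraries. These sums are dominated by the highest chains and were not tested.

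**Figure D4:**
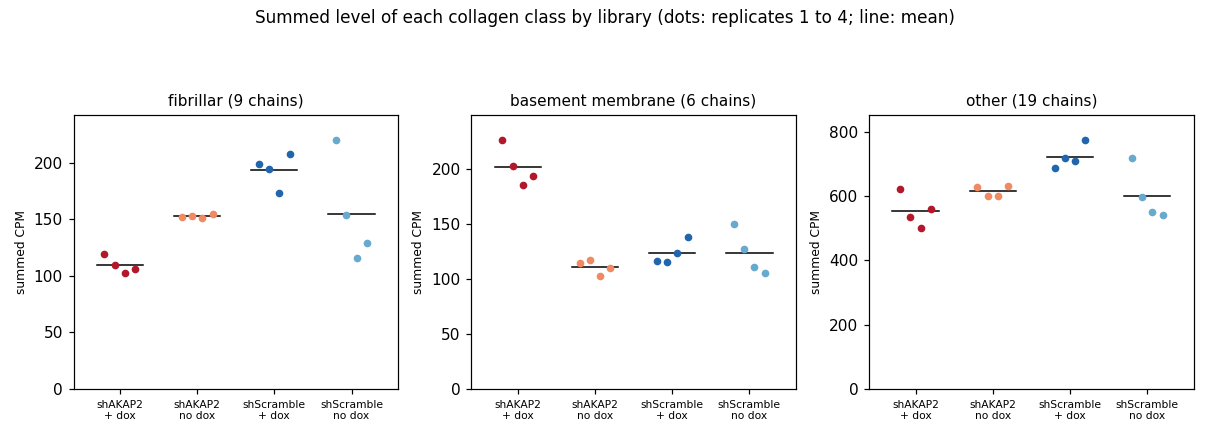
Summed CPM (y axis, from 0) of fibrillar, basement membrane and other collagen chains in each library of the 4 groups, with dots for replicates and lines for means. Induced shAKAP2 libraries are the highest for basement membrane chains (185 to 227 CPM) and their fibrillar sums (103 to 119.6 CPM) lie below all uninduced shAKAP2 and induced shScramble libraries.

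Ratios between chains that share a trimer or a filament were compared per base of exon. The ratio of COL1A1 to COL1A2 was 1.48 ± 0.175 in induced shAKAP2, 0.636 ± 0.0369 in uninduced shAKAP2, 0.136 ± 0.0608 in induced shScramble and 0.201 ± 0.0688 in uninduced shScramble libraries (SD, n = 4 each). The shAKAP2 groups spanned 1.34 to 1.71 with the drug and 0.592 to 0.672 without it, and no shScramble library exceeded 0.298. The ratio of COL5A2 to COL5A1 was 0.0521 ± 0.0106 in induced shAKAP2 and 0.0171 ± 0.00243 in uninduced shAKAP2 libraries, against 0.0169 ± 0.00592 in induced and 0.0141 ± 0.00444 in uninduced shScramble libraries. COL4A1 to COL4A2 varied less, at 0.477 ± 0.026 and 0.409 ± 0.0256 in induced and uninduced shAKAP2 and 0.497 ± 0.059 and 0.405 ± 0.0358 in induced and uninduced shScramble libraries. The exon length used for COL4A2 (19293 bases) includes retained introns, which raises this ratio by the same factor in every library. Those of COL4A1 (14738 bases) and COL1A2 (11156 bases) likewise join all annotated exons. The level of each ratio therefore depends on the lengths used, while its fold differences between libraries do not. The ratio of COL6A2 to COL6A1 separated the lines, at 0.379 ± 0.0303 and 0.350 ± 0.0229 in induced and uninduced shAKAP2, and 0.592 ± 0.08 and 0.527 ± 0.0932 in induced and uninduced shScramble libraries. The ratios are given without a test.

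**Figure D5:**
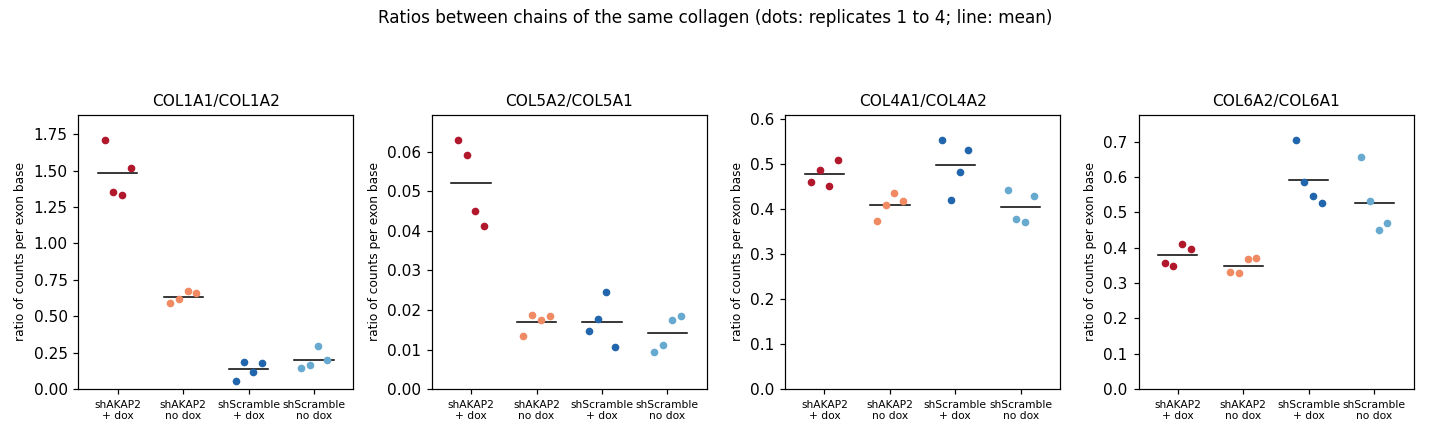
Ratio of counts per exon base (y axis, from 0) between chains of the same collagen in each library of the 4 groups, with lines for means. COL1A1/COL1A2 is 1.34 to 1.71 in induced shAKAP2 libraries and 0.592 to 0.672 in uninduced ones, COL5A2/COL5A1 is highest in induced shAKAP2 libraries, and COL6A2/COL6A1 is lower in both shAKAP2 groups than in both shScramble groups.

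A 7-base word, GAACACA, had been found earlier in these data to be frequent in 3' UTRs (the untranslated ends of transcripts) of genes that fell in shAKAP2 cells with doxycycline, so the chains were searched for it in GENCODE 29 transcripts, sense strand only. Of the 27 tested chains 2 held it (7.41%), and of the 5 chains that fell 0 did. Among tested genes with a 3' UTR, 27.4% of those that fell, 4.38% of those that rose and 8.03% of the uncalled held it, 10.8% in all. The sites of the tested chains are shown because both chains were uncalled; the word is in capitals, 5' to 3' on the transcript strand, for COL1A1 at chr17:50183347-50183375 and COL4A4 at chr2:227005640-227005668 and chr2:227004069-227004097, all minus strand of GRCh38:
COL1A1: ctgaatccccaGAACACAacccccctggg
COL4A4 first site: tcttatatgcaGAACACAtttcaaatgag
COL4A4 second site: agcacagagttGAACACAttactgccaat
In shAKAP2 cells COL1A1 and COL4A4 changed by log2 0.12 and 0.30 with doxycycline, neither called. The fall of COL1A2, COL3A1, COL5A1, COL13A1 and COL18A1 thus occurred in genes without these letters in the 3' UTR searched. A match or its absence is a description of the letters and says nothing on binding.

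Genes that fold, export, process, crosslink, bind or cut collagen were counted by lists written from general knowledge. The counts of these lists stand beside 13.1% of all genes higher and 15.2% lower with doxycycline in shAKAP2 cells. Of 17 tested genes for folding and modification in the endoplasmic reticulum, 6 rose (35.3%) and 4 fell (23.5%), with a median log2 fold change of 0.26. P4HB is protein disulphide isomerase and also a subunit of prolyl hydroxylase. It had 345 ± 13 CPM in induced and 678 ± 30.3 CPM in uninduced shAKAP2 libraries (log2 -0.97, SE 0.0856, adjusted p = 3.15e-08). Its shScramble libraries had 723 ± 84 CPM with doxycycline and 718 ± 95.4 CPM without it. CRTAP, of the prolyl 3-hydroxylation complex, fell by 0.59 on the log2 scale (adjusted p = 5.28e-08). SERPINH1, the collagen chaperone HSP47, rose by log2 0.42 (adjusted p = 5.77e-06), and COLGALT1, a collagen galactosyltransferase, by 0.48 (adjusted p = 1.37e-05). PLOD2, a lysyl hydroxylase named after its values were seen, fell by 1.40 (SE 0.223, adjusted p = 0.000234).

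Of 9 genes for procollagen export from the endoplasmic reticulum, 3 rose (33.3%) and 4 fell (44.4%). The coat-vesicle genes TFG (log2 -1.62, SE 0.0636, adjusted p = 2.93e-13), SEC23A (log2 -1.62, SE 0.0675, adjusted p = 6.53e-13) and SEC24D (log2 -1.003, SE 0.0788, adjusted p = 6.46e-09) fell, and KLHL12, which enlarges the vesicles for procollagen, rose by 0.46 (adjusted p = 0.000187). Propeptide processing had 0 higher and 1 lower (16.7%) of 6 tested, ADAMTS14, a procollagen N-proteinase, at 18 and 147 counts in induced and uninduced shAKAP2 cells (log2 -2.84, SE 0.723, adjusted p = 0.00628). Crosslinking enzymes had 1 higher and 1 lower of 5 (20.0% each). LOX fell by 0.75 (SE 0.229, adjusted p = 0.024) and its relative LOXL1 rose by 0.52 (SE 0.164, adjusted p = 0.0215), while for LOXL2 and LOXL4 the difference between the lines' effects was called (-0.39, adjusted p = 0.00721, and -1.04, adjusted p = 0.0247).

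Collagen receptors had 0 higher and 3 lower (37.5%) of 8 tested: MRC2, an endocytic collagen receptor (log2 -1.09, SE 0.107, adjusted p = 1.43e-07), and the integrin chains ITGA2 (-0.69, adjusted p = 0.000162) and ITGA1 (-1.03, adjusted p = 0.00914). Collagenases and gelatinases had 2 higher and 2 lower of 6 tested (33.3% each). MMP1, interstitial collagenase, fell by 3.90 (SE 0.389, adjusted p = 3.13e-06) and MMP2 by 1.59 (SE 0.392, adjusted p = 0.00421), while the membrane-bound collagenase MMP14 rose by 0.48 (SE 0.0845, adjusted p = 0.000189). For MMP9 the lines' effects differed by -3.52 (SE 0.671, adjusted p = 0.000882). MMP9 averaged 1.37 CPM in induced and 1.88 CPM in uninduced shAKAP2 cells (144 and 220 counts). In shScramble cells it averaged 1.82 CPM with doxycycline and 0.213 CPM without it (225 and 26 counts). Of the genes of these lists that fell, P4HB, PLOD1, PLOD2, TFG, SEC23A, SEC24D, ADAMTS14, LOX and MMP1 held the word GAACACA once in the 3' UTR. CRTAP, MIA3, MRC2, ITGA1, ITGA2 and MMP2 did not hold it. Of all tested genes that fell, 27.4% held the word. It was found in genes that fell in these same data, so its presence here is no independent result.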

How the data were processed

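RNA-seq was measured in 16 libraries of MDA-MB-231 cells in 4 groups of 4, taken from the sample labels. Per the labels' protocols, oligo(dT) beads enriched the mRNA, and a NEBNext Ultra II kit was used for the libraries. The build GRCh38 and the tools STAR 2.5.2b, Subread 1.5.2 and featureCounts are named per the submitters' processing notes. No source used here gives the annotation release, the strand setting or the treatment of reads shared by genes. The values are raw counts deposited by the authors, whole reads per gene for 57500 identifiers, of which 485 had no symbol (0.014% of counts) and were kept by identifier. Total counts per library ran from 24482997 to 37472525, and chains with few counts are limited by counting error.

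From these counts, edgeR 4.0.16 in R 4.3.3 kept 15566 genes (filterByExpr), scaled libraries by TMM and fitted a robust quasi-likelihood model with a mean per group to all 16 libraries (biological coefficient of variation 14.4%, 12 residual degrees of freedom). In each of 5 contrasts, calls were made at an adjusted p under 0.05 (Benjamini-Hochberg, all genes tested). Standard errors (SE) were derived from the F statistic. Levels are CPM on TMM-scaled library sizes, or that value per kilobase of union exon length in GENCODE 29 (FPKM). Alternatives were DESeq2 size factors, DESeq2 1.42.0, limma-voom (limma 3.58.1), no filter on low counts, the replicate number as a block, only the groups compared in the fit, both shScramble replicate 1 libraries left out, and each library left out in turn. The script was tested on simulated counts.

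Chains called in any contrast with a mean of at least 1 CPM were given library by library, at most 16 by smallest adjusted p. COL3A1, under that mean, is given likewise because its differences were large. From each pathway list up to 4 called genes were named by smallest p. The members, classes, lists, alternatives and the 3' UTR word were chosen with earlier results of these data known. Promoter windows came from RefSeq (GRCh38.p14), in which 25 of the 34 chains had an entry.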

Additional observations from a re-analysis of the deposited data

Results flagged for a closer look

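For 7 chains the doxycycline effect differed between the lines by the interaction term of edgeR's quasi-likelihood test. The log2 difference, shAKAP2 effect minus shScramble effect, was 0.95 for COL4A2 and 0.88 for COL4A1. It was -1.93 for COL1A2, -0.51 for COL13A1, -3.80 for COL3A1, -1.002 for COL18A1 and -0.76 for COL5A1.

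In uninduced shScramble cells replicate 3 had 1.86 CPM of COL3A1, while the other 3 libraries had 0.349, 0.369 and 0.293 CPM. In induced shScramble cells replicate 1 had 14.3 CPM of COL9A2, beside 9.07, 8.10 and 8.26 CPM in the other 3. In uninduced shAKAP2 cells replicate 1 had 16.01 CPM of COL7A1, beside 13.1, 12.6 and 12.6 CPM. Each stood farther from its group, on the CPM or the log2 scale, than Dixon's 95% critical value for 4 samples allows. Among the 76 groups examined, 4 for each of 19 chains, these were the 3 such libraries, and chance exceeds that value in about 1 of 20 groups.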

How the results depend on the processing

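The 38 called values of the named chains were recomputed under each alternative that could be fitted, which gave 866 values. Of these 819 stayed called in the same direction, 47 were no longer called and 0 reversed, and 28 of the 38 stayed called throughout. The one value that changed direction into a call was the COL5A1 difference between the uninduced lines, -0.02 with all libraries and 0.21 without both shScramble replicate 1 libraries. Chains called higher for doxycycline in shScramble cells numbered 2 in the main analysis, 5 with DESeq2, 6 without both shScramble replicate 1 libraries, 0 with only the compared groups fitted, and 1 to 5 with single libraries left out. Of all genes 0.559% were called higher in the main analysis and 1.08% with DESeq2. That share was 3.73% without both replicate 1 libraries and 0.0948% with only the compared groups fitted. Chains with a lower shAKAP2 effect in the interaction numbered 5, against 3 with no filter on low counts, 9 without both replicate 1 libraries and 5 to 8 with single libraries left out (8 without replicate 1 of induced shAKAP2). Of all genes 10.5% were lower in the main analysis, 4.78% with no filter and 16.3% without both replicate 1 libraries, so the share of genes in general moved with that of the chains. Without both replicate 1 libraries COL6A1, COL6A2, COL7A1 and COL17A1 were added. For the uninduced lines, 3 chains were higher, against 5 with DESeq2, 5 without both replicate 1 libraries and 3 to 5 with single libraries left out (5 without replicate 1 of induced shScramble), beside 8.65%, 10.4% and 13.5% of all genes in the main analysis, with DESeq2 and without both replicate 1 libraries. In the same comparison 3 were lower, against 1 to 4 with single libraries left out. With DESeq2 size factors the median log2 fold change of all genes was at most 0.0109 in absolute size in any comparison. The causes of these changes were not tested.

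Same-numbered libraries deviated together with correlations of only -0.02 to 0.05 in shAKAP2 cells, so the replicate numbers showed no pairing there. In shScramble cells the correlation was 0.40 for replicate 1, 0.02 for replicate 2, 0.20 for replicate 3 and 0.07 for replicate 4. The replicate 1 libraries of that line thus shared part of their deviation. With the replicate block, 5 chains rose and 5 fell for doxycycline in shAKAP2 cells, COL9A2 being added (log2 0.62, adjusted p = 0.0283), and 2 and 6 were called in the interaction. Of all genes 13.5% rose and 15.7% fell with that block in shAKAP2 cells. In the interaction 7.66% of all genes were called higher and 11.1% lower.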
